A study of Mus musculus with 6 samples.

Results

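Complex I, the NADH:ubiquinone oxidoreductase, is the entry point of the mitochondrial respiratory chain, and 35 of its nuclear-encoded subunits were followed here as a named list among the 17447 genes of the count table. All 35 were found by symbol. The list held 6 core subunits and 29 accessory subunits. Measurements were raw counts from RNA sequencing of whole heart tissue of wild-type mice, with 3 sham-operated samples and 3 samples with chronic kidney disease (CKD). CKD came from a subtotal nephrectomy done in 2 steps, in which most renal tissue is taken out, and in sham mice the abdomen was opened and the kidneys exposed but left whole. Neither strain nor age is given in the labels used. Nothing in the labels beyond the replicate numbers says that the samples are separate animals, so the spread between them may be in part technical.

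In complex I, core subunits carry the flavin and the iron-sulfur clusters that pass electrons from NADH to ubiquinone, or form the membrane part that pumps protons. The accessory subunits surround this core and are needed for its assembly and stability. The matrix arm consists of an NADH-binding N module and a ubiquinone-binding Q module. The membrane arm, or P module, has a proximal part beside the Q module and a distal part at its far end. The core subunits of the membrane arm are encoded in mitochondrial DNA and were not analysed here. Heart muscle is rich in mitochondria and draws most of its ATP from this chain.

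The row labels were checked before any level was read. Across all 17447 rows, Spearman's rank correlation was 0.982 to 0.985 between sham columns and 0.984 to 0.987 between CKD columns, but -0.0586 to -0.0528 between a sham and a CKD column. Over the 35 complex I rows alone it was 0.983 to 0.991 within sham, 0.975 to 0.979 within CKD and -0.321 to -0.251 between the groups. These are descriptions across genes, which are not independent replicates. In the sham columns every complex I row stood at or above percentile 90.1 of its column. In the CKD columns the median complex I row stood at percentile 65.0, 64.4 and 62.6, and 10, 13 and 12 of the 35 rows were below percentile 50.

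The row of Ndufb8, an accessory subunit of the membrane arm, read 6548, 7350 and 8225 in the sham columns, against 5, 14 and 4 in the CKD columns. The row of Ndufb11, which lies in the same arm, read 4029, 4057 and 5051 in sham columns, against 17, 0 and 3. The row of Ndufb6, also of that arm, went the other way, from 1033, 1066 and 1446 counts in sham columns to 6627, 7101 and 7193. In percentile, 31 of 35 rows had all CKD columns below all sham columns, which held for 45.4% of all rows. Ndufb6 and Ndufa7 had all CKD columns above all sham columns, which held for 44.7% of all rows. In raw counts the same numbers, 31 and 2, stood beside 44.2% and 44.1% of all rows. Because the ranks of the same names were unrelated between the groups, the CKD columns were not read as gene levels. No CKD against sham difference of a subunit is given, and all levels below are those of the 3 sham hearts.

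**Figure D1:**
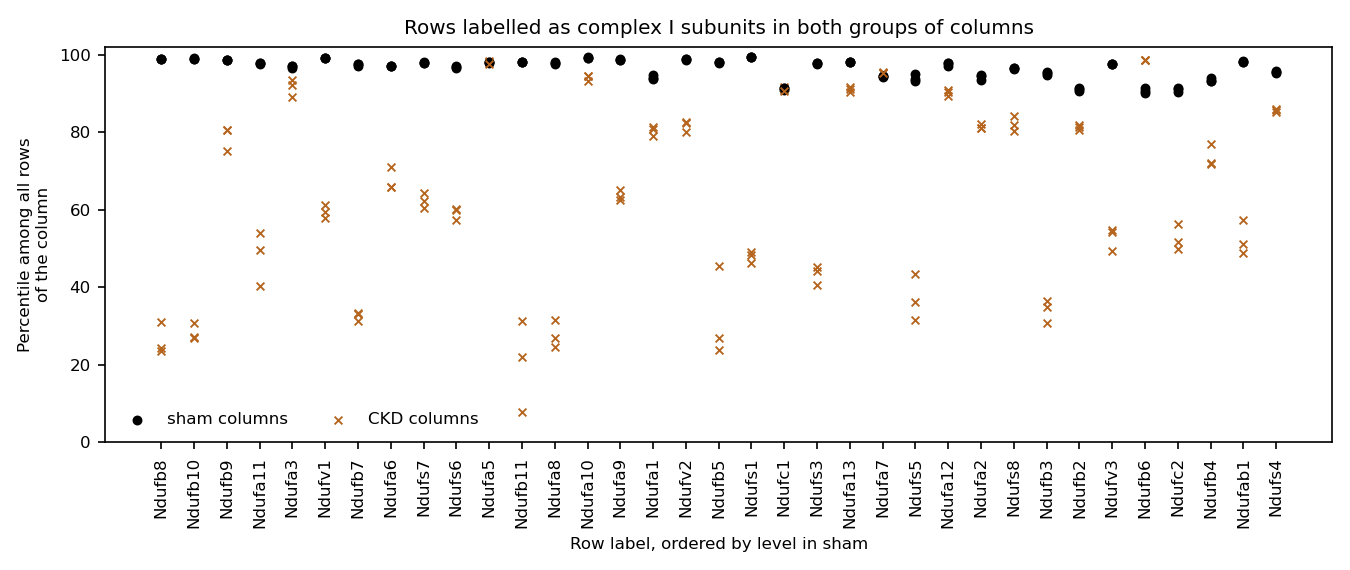
Percentile among all rows of the same column (vertical axis) for the 35 rows labelled as complex I subunits (horizontal axis, ordered by level in sham), with 1 dot per sham column and 1 cross per CKD column. The sham dots all lie at or above percentile 90.1, while the CKD crosses are scattered from 7.79 to 98.8.

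The sham columns totalled 10480788, 10474487 and 12669724 counts. Of these, 130935, 137782 and 159708 fell on the 35 subunits. Among fixed cell type markers, all 11 ventricular cardiomyocyte genes were present and took 13.1%, 14.3% and 12.8% of the counts, here and below in the order sham 1, 2 and 3. Markers of other cell types were a small part. Fibroblast genes (9) took 0.207%, 0.105% and 0.238%, endothelial genes (7) 0.136%, 0.114% and 0.15%, and pericyte and smooth muscle genes (7) 0.155%, 0.161% and 0.19%. Atrial genes (7) took 0.271%, 0.0315% and 0.0682%, macrophage genes (8) 0.0537%, 0.0428% and 0.0676%, and erythroid genes (5) 0.0111%, 0.00827% and 0.0485%. Of the 6 lymphocyte genes, Cd3d was at 0 in sham 2, and the list took 0.000372%, 0.000143% and 0.000268%.

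The 35 subunits together took 1.25%, 1.32% and 1.26% of the counts in sham 1, 2 and 3, a mean of 1.28% ± 0.0354 (SD, n = 3). In CPM, the count scaled to its column total, all 35 had a mean above 100, the lowest being Ndufb6 with 98.6, 101.8 and 114.1. Because a long transcript collects more reads, levels between genes are compared in CPM per kb of transcript. On that scale the median subunit stood at 356.1, 366.2 and 359.3 CPM per kb, a mean of 360.5 ± 5.14 (SD, n = 3). The median of the 8741 genes with at least 10 CPM and a known length was 12.3 ± 0.584 CPM per kb. The hearts ranked the subunits almost alike, with a Spearman correlation of 0.971 to 0.985 between hearts over the 35 genes.

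Per transcript length the core subunits of the N module were close to each other in level. Ndufv1, which binds the flavin and NADH, had 8290, 8768 and 10510 counts and 476.2, 504.0 and 499.4 CPM per kb. Ndufv2, an iron-sulfur protein beside it, had 6529, 6670 and 7174 counts and 367.1, 375.2 and 333.7 CPM per kb. Ndufs1, the largest subunit, which carries several iron-sulfur clusters, had 9322, 9975 and 12215 counts and 334.2, 357.9 and 362.3 CPM per kb. The 3 hearts of Ndufv1 lay above all hearts of the other two, whose ranges overlapped.

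On the same scale the core subunits of the Q module were spread more widely. By coding length this was reversed. Means per coding kb then ran from 428.8 (Ndufs1) to 818.1 CPM (Ndufv2) in the N-module core. In the Q-module core they ran from 389.2 (Ndufs8) to 536.9 (Ndufs7). Ndufs7, which holds the last iron-sulfur cluster before ubiquinone, had 3597, 4130 and 4369 counts and 452.8, 520.2 and 454.9 CPM per kb. Ndufs3, a structural core subunit, had 3559, 3868 and 4553 counts and 324.6, 353.0 and 343.6 CPM per kb. Ndufs8, a ferredoxin-like subunit with a pair of iron-sulfur clusters, had 2452, 2655 and 3233 counts and 238.0, 257.9 and 259.6 CPM per kb. The hearts of these subunits did not overlap, with Ndufs7 highest and Ndufs8 lowest. Between Ndufv1 at 493.2 ± 14.9 and Ndufs8 at 251.8 ± 12.0 CPM per kb (SD, n = 3 each), the 6 core subunits covered a 1.96-fold range.

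The highest accessory subunits belonged to the distal membrane arm. Ndufb8 stood at 918.8, 1032 and 954.7 CPM per kb. Ndufb10, which has paired cysteine motifs facing the intermembrane space, stood at 881.4, 995.7 and 856.9. Ndufb9, a member of the LYR protein family, stood at 814.3, 842.3 and 804.1. Ndufb8 and Ndufb10 overlapped between hearts, and both lay above all hearts of Ndufb9. All 3 remained among the 5 highest when coding length was used in place of transcript length. The top place of Ndufb8 rests on the transcript chosen, of 680 bases, since the union of its exons has 2329 bases. For Ndufb9 and Ndufb10 the union is no longer than the transcript. Exons of another gene on the same strand covered 19.7% of the Ndufb8 transcript and 28.6% of the Ndufb9 transcript in the annotation, so part of their reads could have been dropped or shared in the counting.

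The lowest accessory subunits on the transcript scale were Ndufs4, Ndufab1 and Ndufb4. Ndufs4, whose loss causes Leigh syndrome in people and an encephalopathy in mice, had 2059, 2177 and 2562 counts and 115.7, 122.4 and 119.1 CPM per kb. Ndufab1, the mitochondrial acyl carrier protein, which also works in fatty acid and lipoic acid synthesis outside complex I, had 4317, 4807 and 5260 counts and 118.4, 131.9 and 119.3 CPM per kb. Ndufb4, of the distal membrane arm, had 1486, 1570 and 1789 counts and 146.0, 154.4 and 145.4 CPM per kb. Ndufs4 and Ndufab1 overlapped between hearts and both lay below Ndufb4. The place of Ndufab1 rests on an annotated transcript of 3479 bases with 468 coding bases. By coding length it ranked 6 of 35, against 34 of 35 by transcript length, while Ndufs4 ranked 30 and Ndufb4 31.

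From Ndufb8 at 968.5 ± 57.8 to Ndufs4 at 119.1 ± 3.35 CPM per kb, the subunits covered an 8.13-fold range. The range rests on the transcript chosen for Ndufb2: with the longest principal transcript, of 4371 bases, Ndufb2 was the lowest at 24.8 CPM per kb and the range was 39.1-fold, and with the union of exons it was 36.8-fold. The union range did not start at Ndufb8, whose exons together span 2329 bases. The middle of the order was dense. The upper quartile was 1.76 times the lower quartile. Of 34 pairs of neighbours in the order, 6 had hearts that did not overlap. They marked steps below Ndufb10, Ndufb9 and Ndufa11 at the top and below Ndufb2, Ndufv3 and Ndufb4 at the bottom. The subunits between Ndufa3 and Ndufb2 formed a series without such a step.

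**Figure D2:**
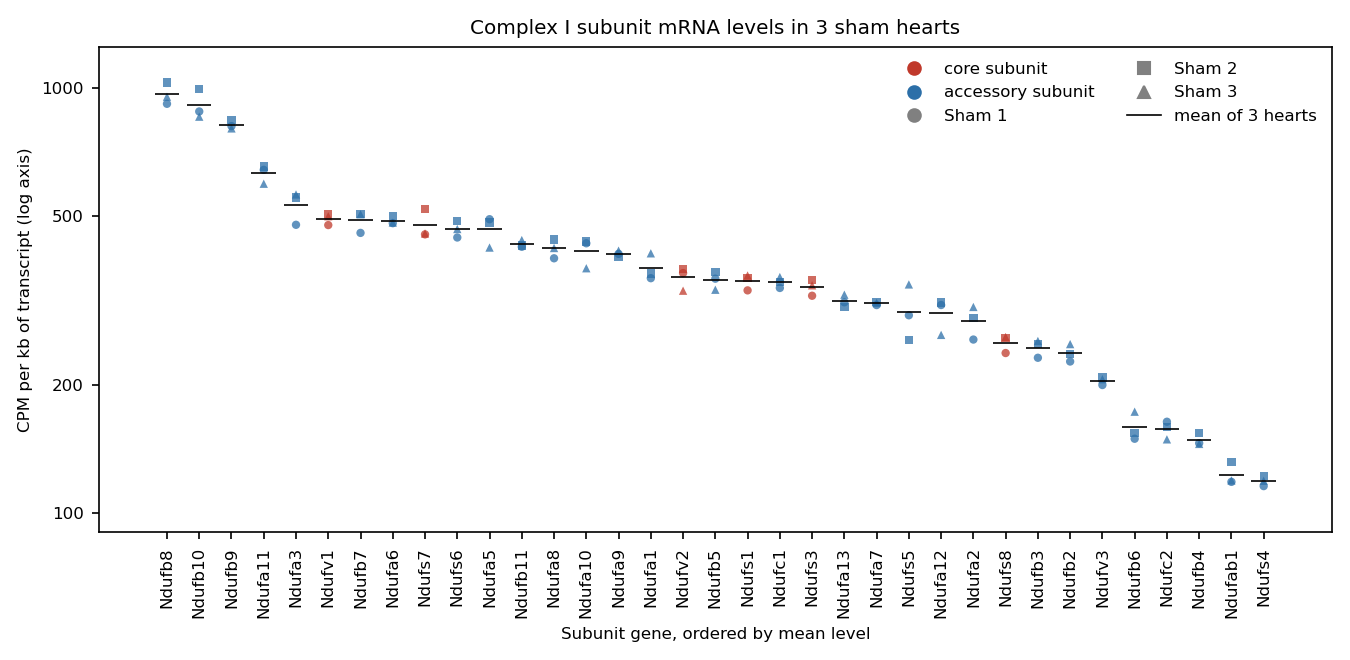
Level in CPM per kb of transcript (log axis) of each of the 35 subunits in 3 sham hearts, ordered by the mean, with core subunits in red, accessory subunits in blue, a different symbol for each heart and a bar at the mean of 3. Levels run from 968.5 for Ndufb8 to 119.1 for Ndufs4, and the 6 core subunits lie between 493.2 and 251.8.

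Core and accessory subunits were then compared within each heart. The median over the 6 core subunits was 356.7 ± 8.60 CPM per kb and that over the 29 accessory subunits 360.5 ± 5.14 (SD, n = 3). The core minus accessory difference of the median log2 level was -0.02, 0.00 and -0.03 in sham 1, 2 and 3, with a mean of -0.02 ± 0.02 (SD, n = 3). It was about as large as its spread between hearts. The size of the difference depended on the length used. With coding length it was -0.56, -0.49 and -0.54, with a mean of -0.53 ± 0.04, so that core subunits were lower in all 3 hearts. In plain CPM it was 0.70, 0.67 and 0.63, with a mean of 0.67 ± 0.04, so that they were higher in all 3. The median transcript was 1353.5 bases for core and 704 for accessory subunits, and the median coding length 766.5 and 411 bases. Subunits are not replicates and 3 paired hearts cannot give a two-sided exact sign-flip p below 0.25, so no test was made.

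**Figure D3:**
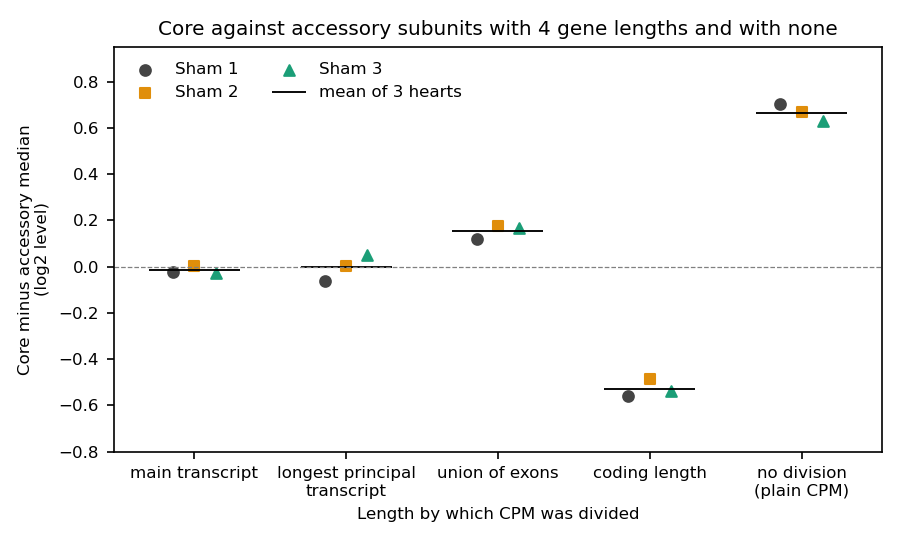
Core minus accessory difference of the median log2 level (vertical axis) when CPM was divided by 4 kinds of gene length or by none (horizontal axis), with 1 symbol for each sham heart and a bar at the mean of 3. The difference lies near 0 for both transcript lengths, at 0.15 for the union of exons, at -0.53 for coding length and at 0.67 for plain CPM.

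The core subunits were also closer together than the accessory ones. The SD of log2 level over subunits was 0.36 ± 0.02 for core and 0.80 ± 0.01 for accessory subunits (mean ± SD over 3 hearts). By module, the 10 N-module subunits had a median of 326.8 ± 8.02 CPM per kb and the 5 Q-module subunits 407.7 ± 6.75. By coding length this order was reversed. The middle Q-module subunit, Ndufa9, then had a mean of 520.8 CPM per coding kb. The middle N-module subunits, Ndufa2 and Ndufv1, had 545.2 and 588.5. The 8 proximal membrane subunits had a median of 358.0 ± 10.1 and the 11 distal ones 353.8 ± 17.3, whose hearts overlapped. The distal part held the 3 highest subunits as well as Ndufab1 and Ndufb4, and its SD of log2 level was 1.08 ± 0.0213, against 0.53 ± 0.0459 in the proximal part. These SDs, for class and for module, are per transcript length and were not computed by coding length. Ndufab1, an accessory subunit of the distal part, ranked 34 by transcript length and 6 by coding length. Ndufa11, a membrane subunit that was assigned to neither part, stood at 630.7 ± 30.8 CPM per kb.

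Complex I subunits stood below those of complex III, complex IV and ATP synthase per length. The median was 769.4 ± 30.9 CPM per kb over 9 complex III subunits, 1086 ± 7.21 over 13 complex IV subunits and 859.8 ± 46.2 over 15 ATP synthase genes (SD, n = 3 each). The ATP synthase list includes Atpif1, the gene of an inhibitor of the enzyme, while Atp5f1 and Usmg5 were not found by symbol. The complex I median was lower in all 3 hearts in each case, also by coding length, where it was 668.6 ± 33.1 against 1628 ± 127, 2516 ± 56.5 and 1756 ± 53.6. Complex II, with 4 subunits, was also above complex I in all 3 hearts, at 600.5 ± 36.1 CPM per kb and 1135 ± 58.2 by coding length. No test was made, for the same limit of 3 hearts. The SD of log2 level was 0.74 ± 0.0138 for complex I, 0.94 ± 0.0105 for complex II and 0.46 ± 0.0248 for complex III. It was 1.01 ± 0.0122 for complex IV and 1.20 ± 0.00678 for ATP synthase. By coding length the SDs were 0.63 ± 0.0235, 0.17 ± 0.0331, 0.60 ± 0.0153, 0.89 ± 0.0106 and 0.90 ± 0.0163 in that order. Complex I and complex III were then close. The complex IV and ATP synthase lists include genes for isoforms of the same subunit, such as Cox7a1 and Cox7a2 or the Atp5g genes.

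The assembly factors of complex I, which build the enzyme but are not part of it, were far lower. Their median over the 19 genes found by symbol, which leave out Coa1, was 22.1 ± 1.60 CPM per kb. The highest was Tmem126a at 77.2 and the lowest Nubpl, an iron-sulfur cluster carrier, at 3.33 CPM per kb. In plain CPM, 1 of the 19, Ecsit, had a mean above 100 CPM, at 119.4 ± 10.4, and Foxred1 stood at 90.4 ± 4.38 and Ndufaf1 at 66.1 ± 1.83 CPM. With the transcripts chosen here, every subunit on the list exceeded the highest assembly factor per length. With its longest principal transcript, Ndufb2 stood at 24.8 CPM per kb, below the 77.2 of Tmem126a.

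Between hearts, scaled by column totals, the subunits varied less than most genes. The median coefficient of variation (CV) of CPM over the 3 hearts was 4.85%, against 9.3% over the 8741 genes with at least 10 CPM, and 33 of the 35 subunits were below that value. Without sham 3 the median CV of the subunits was 2.86%, and without sham 1 or sham 2 it was 3.81% and 4.19%. The median over genes with at least 10 CPM was then 7.85%, 7.91% and 7.33%. Complex II, complex III, complex IV and ATP synthase had medians of 5.19%, 4.33%, 4.49% and 5.23% over all 3 hearts. Counting error alone gave a CV of 0.98% to 2.92% for the subunits, and 34 of 35 exceeded their own counting CV. In 17 the observed CV was more than 3 times the counting CV. With TMM scaling, described below, the median CV of the subunits was 7.06%, and no value for all genes is given on that scaling.

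Ndufs5, an intermembrane-space subunit with paired cysteine motifs, varied most, with 153.3, 134.0 and 181.2 CPM and a CV of 15.2%. Its lowest value was in sham 2 and its highest in sham 3. Ndufa12, an accessory subunit of the N module, had 342.7, 347.7 and 291.5 CPM and a CV of 9.51%, with sham 3 apart from the other two. Ndufa2, also of the N module, had 146.5, 164.6 and 174.7 CPM and a CV of 8.85%. At the other end, Ndufa7, another N-module subunit, had 163.0, 165.9 and 164.9 CPM and a CV of 0.91%, below its counting CV of 2.34%. Ndufa9, a Q-module subunit with a dehydrogenase-like fold, had 588.7, 579.5 and 599.0 CPM, with a CV of 1.65%. Ndufb11 had 384.4, 387.3 and 398.7 CPM, with a CV of 1.93%.

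**Figure D4:**
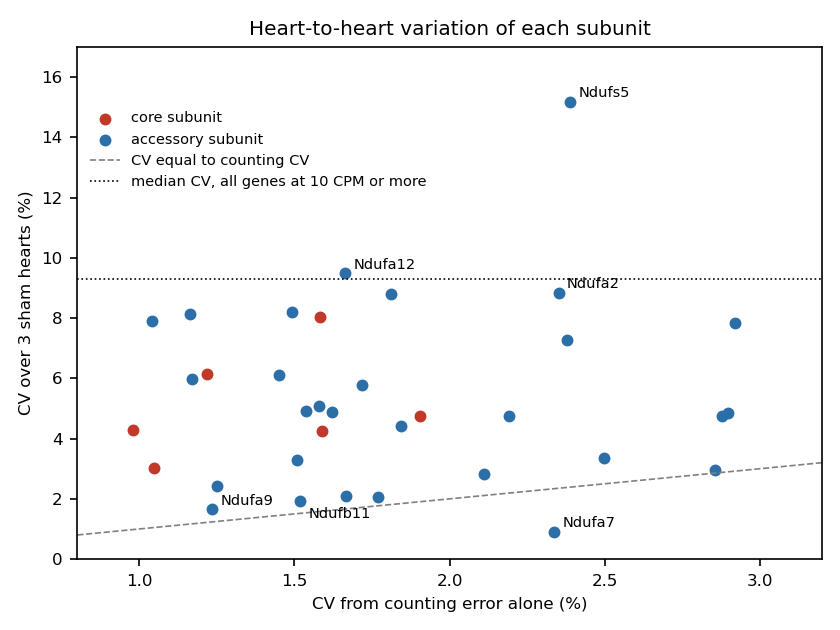
Coefficient of variation of CPM over 3 sham hearts (vertical axis, %) against the value that counting error alone gives (horizontal axis, %) for 35 subunits, core in red and accessory in blue. Ndufs5 lies apart at 15.2%, Ndufa7 at 0.91% lies below the dashed line of equal values, and Ndufs5 and Ndufa12 are the subunits above the dotted line at 9.3%.

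The small differences between hearts had a shared direction. Scaled by column totals, 20 subunits were highest in sham 2, 13 in sham 3 and 2 (Ndufa5 and Ndufc2) in sham 1. Of the 8862 genes with at least 10 CPM and counts in every heart, 23.5%, 39.6% and 37.0% were highest in sham 2, 3 and 1. The median log2 ratio over the subunits was 0.06 for sham 2 over sham 1 and -0.04 for sham 3 over sham 2, where all genes had -0.06 and 0.07. With TMM scaling, which centres the bulk of genes, the all-gene medians moved to 0.02 and -0.03 and the subunit medians to 0.14 and -0.14. Then 32 of 35 subunits were highest in sham 2 and 3 in sham 3, beside 38.9% and 29.9% of all genes.

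In sham 2 ventricular cardiomyocyte markers stood on the same side as the subunits under either scaling. In sham 1 and sham 3 this depended on the scaling. Of the 11 cardiomyocyte genes 10 were highest in sham 2 under either scaling, and 0 in sham 3. The exception, Myl2, was highest in sham 1, at 11812, 10810 and 10565 CPM in sham 1, 2 and 3. The median log2 ratio of the 11 genes to the mean of hearts was 0.01, 0.09 and -0.07 by column totals, where the subunits had -0.04, 0.04 and 0.00. With TMM the cardiomyocyte genes had -0.01, 0.14 and -0.11, and the subunits -0.07, 0.10 and -0.04. The ratio of sham 3 to sham 1 was -0.11 for the cardiomyocyte genes and 0.05 for the subunits, and -0.12 and 0.03 with TMM. The 9 fibroblast genes stood at -0.69, the 7 endothelial genes at -0.25 and the 8 macrophage genes at -0.32 in sham 2, and by column totals 0 of these 24 genes were highest there, by TMM 1. The 7 pericyte and smooth muscle genes stood at -0.20 in sham 2, where 1 of them, Rgs5, was highest by column totals and 2 by TMM. Atrial genes (7) differed most, at 1.25, -2.99 and -1.02, and erythroid genes (5) stood at -1.03, -1.47 and 1.08. Complex II, complex III, complex IV and ATP synthase stood at 0.08, 0.06, 0.03 and 0.05 in sham 2, beside 0.04 for complex I. The part of cell composition in the subunit ratios was not tested. In whole tissue, fewer cells of a type and less RNA per cell cannot be told apart.

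**Figure D5:**
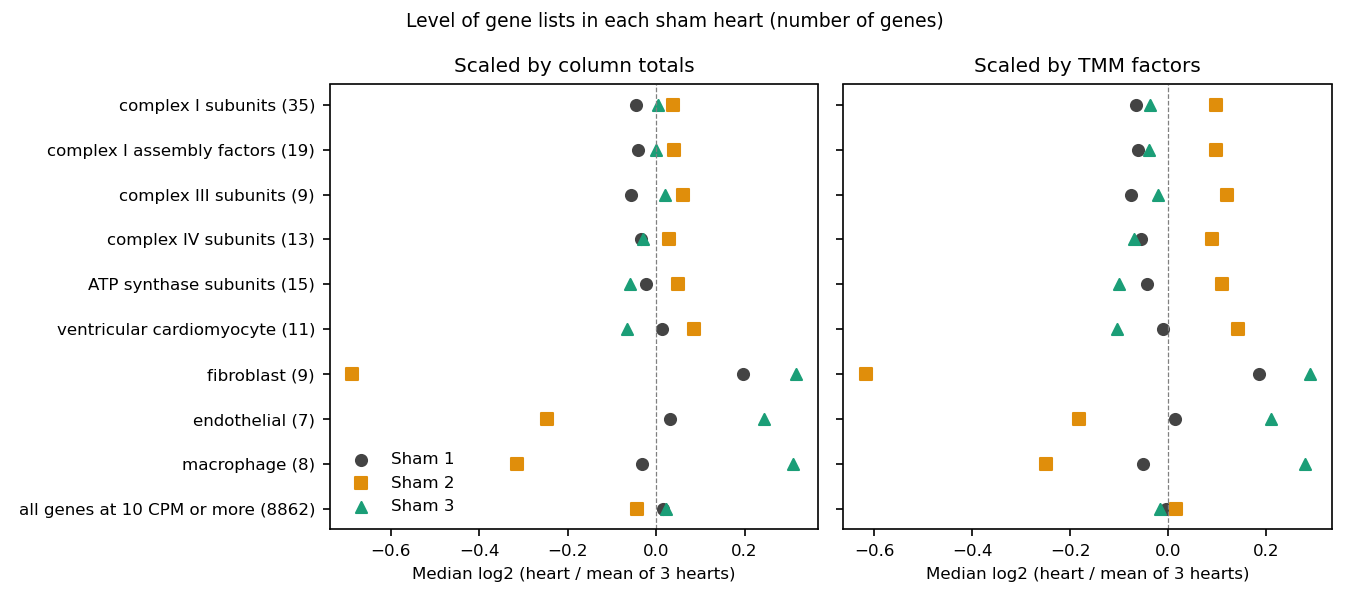
Median log2 ratio of each sham heart to the mean of 3 hearts (horizontal axis) for 10 gene lists (vertical axis, number of genes in parentheses), scaled by column totals on the left and by TMM factors on the right, with 1 symbol for each heart. In sham 2 complex I subunits are at 0.04 on the left and 0.10 on the right, while fibroblast genes are at -0.69 and -0.62.

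A few subunits left this shared pattern. Ndufs5, Ndufa9 and Ndufa13 were lowest in sham 2 by column totals. Ndufa13, also known as GRIM-19, had 392.1, 382.7 and 408.5 CPM. Between sham 3 and sham 1 the subunits split, with Ndufa2, Ndufa3, Ndufs5 and Ndufb6 higher in sham 3 by 0.25, 0.24, 0.24 and 0.21 on the log2 scale and Ndufa12, Ndufa5 and Ndufa10 at -0.23, -0.22 and -0.20. These 7 were chosen after their values were seen. Over the 35 subunits the ratio of sham 3 to sham 1 had a Spearman correlation of -0.42 with transcript length, while over 8739 genes it was 0.22. The points share the same 2 libraries, and a value for RNA quality was not analysed here.

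The genes of the subunits are scattered over the genome, on 15 chromosomes in the GRCm38 annotation, with at most 5 on a single chromosome. A coding gene on the opposite strand started within 1000 bases upstream, head to head, for 8 of 35, among them Ndufa7 with the ribosomal protein gene Rps28 and Ndufa2 with Ik. The share was 10.2% among 8725 coding genes with at least 10 CPM. Exons of another gene overlapped those of 14 subunits, over 10% of the transcript in 8. The share over all genes was not computed for this overlap, so the counts describe the subunits only. Strandedness of the counting is not given in the sources used here, so reads of overlapping genes on opposite strands may not have been told apart. Related copies in the table were low, with 199, 267 and 261 counts for Ndufab1-ps, 152, 193 and 232 for Ndufs6b, and 24, 22 and 17 for Ndufb4b. How reads shared with such copies were counted is not known, so Ndufab1, Ndufs6 and Ndufb4 are uncertain to that extent.

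Promoter sequence was a property that the list did not use. RefSeq windows of GRCm38.p6, from 250 bases before to 50 after the start, were found for 32 of 35 subunits. Their median GC content was 59.2%, against 61.7% for 7163 genes with at least 10 CPM and 52.7% for all 27025 genes with a window. Motif letters were searched on both strands. The letters GCGC, any base and TGCGC, the core of the site of NRF1, a transcription factor known for nuclear genes of the respiratory chain, were found in 7 of 32 windows (21.9%). They were in 12.6% of windows of genes with at least 10 CPM and 5.19% of all. The letters AAGATGG and C, any base and GC, the site of the factor YY1, were found in 5 of 32 (15.6%), against 3.17% and 1.14%. CCGGAAG, the site of GABPA (also called NRF2), was found in 4 (12.5%), against 21.6% and 9.93%. TATAAA was found in 4 (12.5%), against 8.70% and 15.7%, CCAAT in 10 (31.2%), against 42.3% and 41.1%, and TCAAGGTCA, the site of the oestrogen-related receptors, in 0, against 0.265% and 0.466%. A match describes these letters only and does not show binding.

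The 5 YY1 matches are shown because all of them lie at the start of translation. In each, the match began 25 to 39 bases after the transcript start, on the strand of the gene, and its ATG was the annotated start codon. Each line gives the coordinates in GRCm38.p6 and the strand, and the match is in capitals, with up to 30 bases as far as the window reaches. Of all 292 matches in first windows of all genes, 57.2% began after the start. How many of them hold the annotated start codon was not computed over all genes.
Ndufs7 at chr10:80249464-80249493, plus strand: gccgaggccAAGATGGCGGCgctggcgggt
Ndufs4 at chr13:114388045-114388068, minus strand: gcctacaggAAGATGGCGGCggtc
Ndufs6 at chr13:73328433-73328458, minus strand: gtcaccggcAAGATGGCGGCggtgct
Ndufa9 at chr6:126849095-126849124, minus strand: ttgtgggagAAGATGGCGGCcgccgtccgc
Ndufb8 at chr19:44555393-44555413, minus strand: gagaaggtgAAGATGGCTGCc

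NRF1 matches upstream of the start were found in 6 subunits, and the match nearest to the start is shown for each, to let their surroundings be compared. The seventh, in Ndufa6, lay after the start. Capitals mark the match, read along the strand of the gene, so that a match on the other strand reads GCGCA, any base and GCGC.
Ndufs6 at chr13:73328483-73328523, minus strand: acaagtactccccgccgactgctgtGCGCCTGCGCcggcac
Ndufb4 at chr16:37654369-37654415, minus strand: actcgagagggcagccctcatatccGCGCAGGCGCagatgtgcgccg
Ndufa5 at chr6:24527691-24527741, minus strand: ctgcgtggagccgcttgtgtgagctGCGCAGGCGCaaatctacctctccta
Ndufa8 at chr2:36049339-36049393, minus strand: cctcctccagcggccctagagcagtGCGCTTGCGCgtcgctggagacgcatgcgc
Ndufa11 at chr17:56717677-56717736, plus strand: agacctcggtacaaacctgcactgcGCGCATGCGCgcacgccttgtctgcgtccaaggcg
Ndufs5 at chr4:123718250-123718309, minus strand: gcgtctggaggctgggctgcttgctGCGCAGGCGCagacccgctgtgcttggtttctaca

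The levels of subunits with and without these letters overlapped. The 7 with the NRF1 letters ran from 148.6 to 630.7 CPM per kb with a median of 465.3, and the 5 with the YY1 letters from 119.1 to 968.5 with a median of 465.9. The 4 with the GABPA letters ran from 159.1 to 489.1 with a median of 296.1. The 17 with none of the NRF1, GABPA and YY1 letters ran from 123.2 to 911.3 with a median of 349.3. The genes of NRF1, YY1 and GABPA were lower than any subunit in plain CPM, with Nrf1 at 15.0 ± 2.04, Yy1 at 60.0 ± 8.36 and Gabpa at 68.1 ± 6.80 CPM (SD, n = 3 each). Of the oestrogen-related receptors, Esrrb at 54.1 ± 12.5 and Esrrg at 69.0 ± 7.73 CPM were also lower. Esrra stood at 150.3 ± 16.2 CPM, above the lowest subunits, such as Ndufb6 at 104.8 CPM. Of the coactivators of mitochondrial genes, Ppargc1a had 1251, 2087 and 1546 counts and Ppargc1b 396, 606 and 772. Ppargc1a was highest in sham 2 and Ppargc1b in sham 3.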

How the data were processed

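RNA from heart tissue was sequenced in 3 sham and 3 CKD samples. The authors deposited 1 table of raw counts per gene symbol. The submitters' processing notes name HISAT2, HTSeq, DESeq and Trimmomatic, and mm9 as the build. Their versions, the strandedness and the annotation were not stated in what was used here. Columns were matched to samples by title.

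CPM was computed as count over column total. Levels between genes were compared after division by transcript length (CPM per kb), taken from GENCODE release 21 of the mouse M series (GRCm38) by symbol: the principal coding transcript, with a RefSeq match preferred, then the longest. Spread is the SD over the 3 sham hearts. TMM factors came from edgeR 4.0.16 in R 4.3.3 as an alternative scaling. Promoter windows came from the RefSeq table of GRCm38.p6. The scripts ran in Python 3.11.15 and were tested on simulated data. No CKD against sham fit was made, because the row labels of the CKD columns went against their values, and no test across genes was run.

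The member list and the gene lists were chosen with earlier results of these data known. Full values are given for the 6 core subunits, the 3 highest and 3 lowest accessory subunits by CPM per kb, and the 3 subunits with the largest and the 3 with the smallest coefficient of variation. The alternatives were leaving out a heart, 2 other scalings, other gene lengths and other member sets.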

Additional observations from a re-analysis of the deposited data

How the results depend on the processing

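No tested call was at stake, and the values given here moved by more than the spread between hearts unless said. The core minus accessory difference and the SD over subunits cannot move with the scaling of a heart. Scaling without the 10 highest rows gave a median level of 419.8 CPM per kb and a share of 1.48%. TMM gave a median CV of 7.06%, and log2 ratios of 0.14 for sham 2 over sham 1 and -0.14 for sham 3 over sham 2. With coding length the median level was 668.6, the core minus accessory difference -0.53 and the SD over subunits 0.63. In plain CPM these were 337.3, 0.67 and 0.90. Without the highest and lowest subunit the SD was 0.67. Chosen after seeing the data, the union of exons gave 318.5, 0.15 and 0.98, and the longest principal transcript a level of 352.9 and an SD of 1.03. Without the 8 subunits that overlap another gene over more than 10% of the transcript the core minus accessory difference was -0.0405 and the SD 0.71. Leaving out each heart in turn gave median levels of 357.7 to 362.7, differences of -0.03 to -0.01, SDs of 0.74 to 0.75 and shares of 1.25% to 1.29%. These are means over hearts, which by construction shift by less than 1 SD when a value is dropped, so they say little. The median CV is no such mean, and it was 2.86% to 4.19%, lowest without sham 3, against 4.85% with all hearts. No paired analysis was possible because no comparison of CKD with sham was made. Depth allows a CPM of 0.237 to 0.286 for a gene at 0, for counting error only, and all subunits were far above it.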
